A study of Mus musculus with 2 samples.

Results

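Integrins, laminins and the proteins that link them to the basement membrane were followed in the mouse uterus with and without repression of VEGF. The set was chosen by gene symbol: the integrin alpha and beta chains, the laminin alpha, beta and gamma chains, the nidogens, agrin, dystroglycan, fibronectin and vitronectin. The deposited table held 42 such genes among 14678, namely 17 integrin alpha chains, 8 integrin beta chains, 11 laminin chains, 4 linker genes and 2 soluble ligands.

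Both groups were uteri of mice of the genotype VEGFtetO/tetO/beta-AKtg/wt, collected on gestation day 2.5. These animals carry tet operators in the VEGF promoter and express a tetR-Krab repressor from a β-actin transgene in all tissues, so that repression is not limited to a cell type. Dox+ mice received doxycycline chow and kept VEGF expression (labelled VEGF-normal), and Dox− mice received chow without doxycycline, on which the repressor blocks VEGF. The paper describes the mice of both groups as littermates, with doxycycline removed after weaning age and RNA isolated some weeks later. Doxycycline and VEGF thus changed together, and their effects cannot be told apart. RNA of 3 uteri was pooled for each group and 1 library of sequence tags was made per group, so a difference between the groups has no replicate check. The copy number of a gene counts its tags, and fold changes are ratios of copies per clean tag, with 5985925 clean tags in Dox+ and 5844314 in Dox− as the deposited TPM values imply. Fold changes carry exact 95% intervals that cover counting error only. Vegfa, the repressed gene, had 247 copies in Dox+ and 125 in Dox−, which was 1.93-fold lower (1.55 to 2.41). The uterine markers Pgr, Esr1, Msx1, Hoxa10, Hoxa11, Ltf and Foxa2 all had tags in both libraries. By the calling rule given below, all 6 of those with at least 200 combined copies were called. Ltf (2.99-fold), Pgr (1.87-fold) and Esr1 (1.63-fold) were higher in Dox−, and Hoxa11 (3.20-fold), Hoxa10 (2.87-fold) and Msx1 (2.36-fold) lower. By the same rule, 15.2% of all genes with enough copies were called higher and 14.7% lower.

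Integrins are paired alpha and beta chains that span the cell membrane and bind matrix proteins outside the cell. Laminins are trimers of an alpha, a beta and a gamma chain and form the sheet on which epithelium, vessels and smooth muscle rest. Nidogens and agrin tie the laminin sheet to its neighbours, and dystroglycan is a laminin receptor outside the integrin family. In the uterus, these proteins are known for their part in the contact between luminal epithelium, stroma, vessels and the attaching embryo.

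A gene was called when its combined copy number in both libraries was at least 200, its fold change at least 1.5 and the FDR of the Audic-Claverie test below 0.05. Counting error is the one source of error in this test, which therefore sets 1 library against the other and says nothing of the spread between pools. Over the 7 called genes, FDR ran from 3.44e-24 for Itgb3 to 0.000312 for Lama3. Of the 42 genes, 23 reached a combined copy number of 200. Itgb3, Itga6 and Lama3 were called higher in Dox−, 3 of 23 genes or 13.0%, where 15.2% of all genes with enough copies were called higher. Lama4, Itga5, Lamb2 and Lamb1 were called lower, 4 of 23 or 17.4%, where 14.7% of all genes were called lower. Both shares were near those of all genes. The log2 ratios of the 23 genes had a median of 0.03, as did those of all 6547 genes with enough copies. By these counts the set as a whole did not stand apart from the other genes, while single chains differed in both directions. In the exact test of edgeR with an assumed variation between pools of 0.2 (coefficient of variation), none of the 7 genes was called, and their adjusted p-values lay between 0.106 and 0.521.

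**Figure D1:**
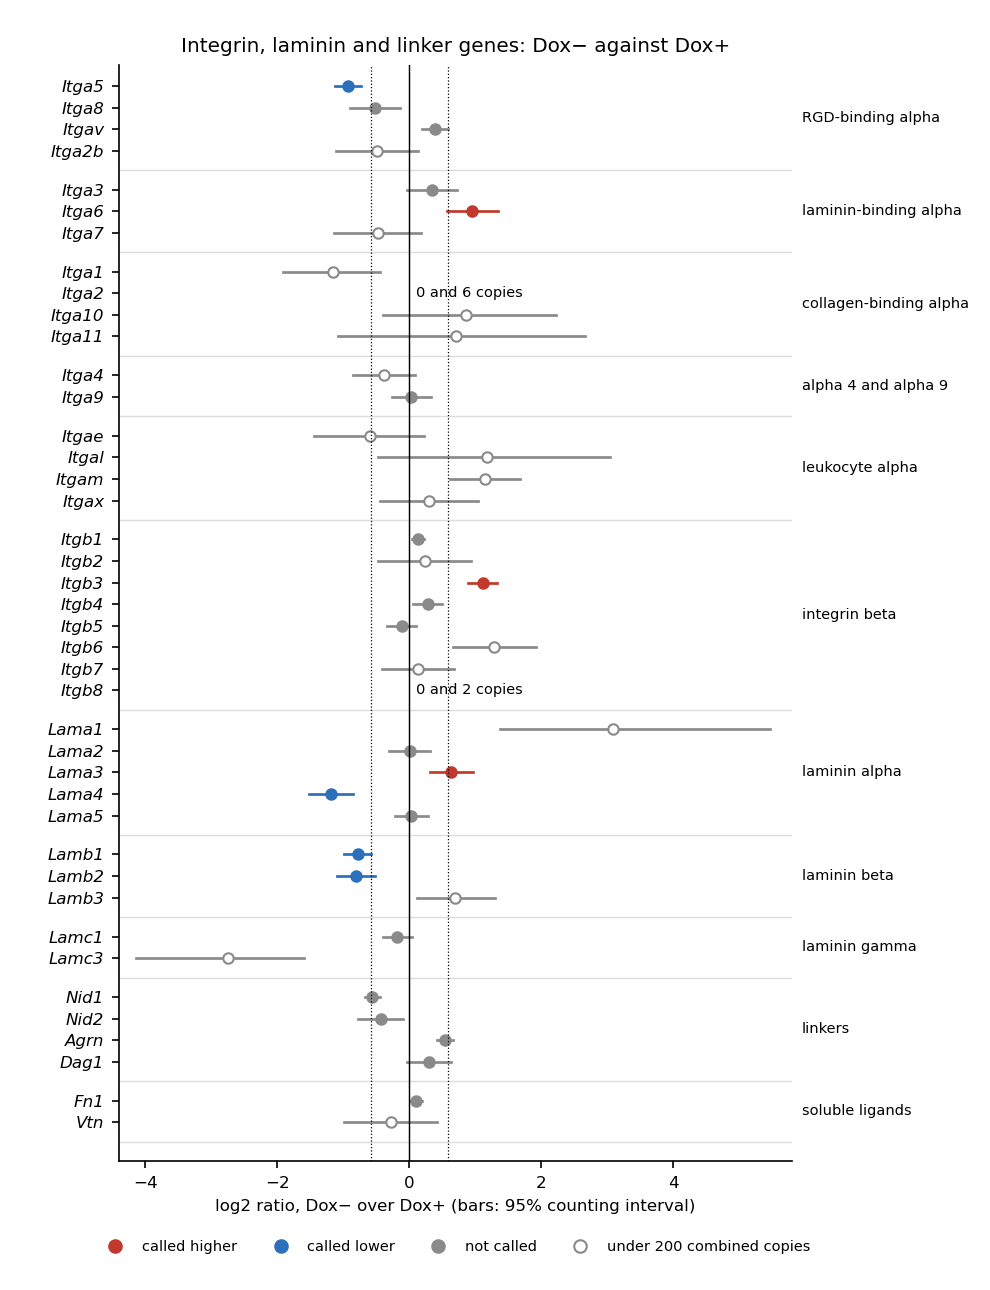
Log2 ratio of Dox− over Dox+ (x axis) for the genes of the set, grouped by role, with bars for the 95% counting interval and dotted lines at a fold change of 1.5. Red and blue points are the 3 genes called higher and the 4 called lower. Open points are those of the 19 genes with under 200 combined copies that had a tag in both libraries. The other 2 of the 19, with no tag in Dox+, are given by their copies.

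The promoters of called genes are shown where the RefSeq table used here held them, since 3 of the 4 genes called lower had an entry. They are those of the laminin beta chains Lamb1 and Lamb2 and of the fibronectin receptor chain Itga5. Each window runs 5′ to 3′ from 250 bases before the gene's start to 50 after it. Positions of these windows are on GRCm38.p6, a later build than the mm9 build of the tags. Capitals mark GGGCGG or CCAAT on either strand, which do not overlap each other here. GGGCGG is the core of the box bound by Sp-family factors, and CCAAT that of the box bound by NF-Y.
Lamb1 (chr12:31265043-31265342, plus strand): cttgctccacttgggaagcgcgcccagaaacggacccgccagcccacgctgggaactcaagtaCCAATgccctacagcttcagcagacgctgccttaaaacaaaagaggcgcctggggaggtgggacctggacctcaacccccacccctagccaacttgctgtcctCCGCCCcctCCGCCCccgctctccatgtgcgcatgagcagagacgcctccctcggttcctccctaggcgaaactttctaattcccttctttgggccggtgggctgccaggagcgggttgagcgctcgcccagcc
Lamb2 (chr9:108479612-108479911, plus strand): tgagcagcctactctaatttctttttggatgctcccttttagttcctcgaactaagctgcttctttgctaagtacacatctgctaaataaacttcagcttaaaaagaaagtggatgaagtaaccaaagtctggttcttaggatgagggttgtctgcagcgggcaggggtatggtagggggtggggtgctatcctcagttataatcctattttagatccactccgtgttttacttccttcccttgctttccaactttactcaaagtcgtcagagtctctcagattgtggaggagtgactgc
Itga5 (chr15:103366742-103367041, minus strand): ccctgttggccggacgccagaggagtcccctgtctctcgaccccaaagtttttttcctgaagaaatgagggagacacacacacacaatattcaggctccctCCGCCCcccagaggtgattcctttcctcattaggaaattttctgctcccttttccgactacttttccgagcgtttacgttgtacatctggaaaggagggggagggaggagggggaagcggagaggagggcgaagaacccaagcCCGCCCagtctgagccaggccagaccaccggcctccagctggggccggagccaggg
Lamb1 held 2 matches to GGGCGG and 1 to CCAAT, Itga5 held 2 to GGGCGG, and Lamb2 held neither. Lamb1 and Itga5 thus shared GGGCGG, and neither motif was in all 3 windows. Among all promoters of this length, 35.7% held GGGCGG and 37.4% held CCAAT. Of the 32 promoters listed for 27 of the members, 17 held GGGCGG and 7 held CCAAT. Itgb3, Itga6, Lama3 and Lama4 had no entry.

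Among the integrin alpha chains that bind the RGD motif of matrix proteins, Itga5 was the called gene. Itga5, which pairs with Itgb1 as the main fibronectin receptor (chromosome 15, 103174720 to 103197194 on NCBIM37, the assembly called mm9), had 640 copies in Dox+ and 328 in Dox−. It was 1.91-fold lower in Dox− (1.67 to 2.18). Fibronectin itself, Fn1, had 2034 and 2139 copies, a ratio of 1.08 (1.01 to 1.15), so the ligand did not share the lower count of its receptor chain. Itgb1, the beta chain that most matrix-binding alpha chains pair with, had 1863 and 1992 copies, a ratio of 1.10 (1.03 to 1.17). The intervals of Fn1 and Itgb1 lay wholly above that of Itga5. As a share of the copies of all integrin alpha chains, Itga5 made up 33.0% in Dox+ (95% exact binomial interval 30.9 to 35.2) and 18.6% in Dox− (16.8 to 20.4). This share does not depend on the library totals.

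Of the genes called higher, Itgb3 had the largest ratio. Itgb3 forms the vitronectin receptor with Itgav and the platelet fibrinogen receptor with Itga2b (chromosome 11, 104469370 to 104531790). It had 255 copies in Dox+ and 538 in Dox−, 2.16-fold higher in Dox− (1.86 to 2.52). Its share of the copies of all integrin beta chains went from 8.73% (7.73 to 9.82) to 15.8% (14.6 to 17.0). Of its partners, Itgav had 379 and 484 copies, 1.31-fold higher (1.14 to 1.5), which stayed under the fold threshold. Itga2b had 56 and 39 copies, and its interval, 0.461 to 1.09 as a ratio of Dox− over Dox+, held 1. The 2 partner chains thus did not follow Itgb3 to the same extent, as both intervals lay below its own.

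The other beta chains that pair with Itgav were not alike. Itgb5 had 357 and 322 copies, and its ratio of 0.924 (0.792 to 1.08) did not differ from 1 beyond counting error. Itgb6, an epithelial chain known for activating TGFβ, had 32 and 76 copies, 2.43-fold higher in Dox− (1.59 to 3.80), at too few copies to be called. Itgb8, another chain that activates TGFβ, had no tag in Dox+ and 2 in Dox−, too few for a fold change. Vtn, the gene of vitronectin, had 41 and 33 copies, and its interval of 0.505 to 1.34 held 1. Itga8, an RGD-binding chain of mesenchymal and smooth muscle cells, had 149 and 102 copies, 1.43-fold lower (1.10 to 1.85) and under the fold threshold.

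**Figure D2:**
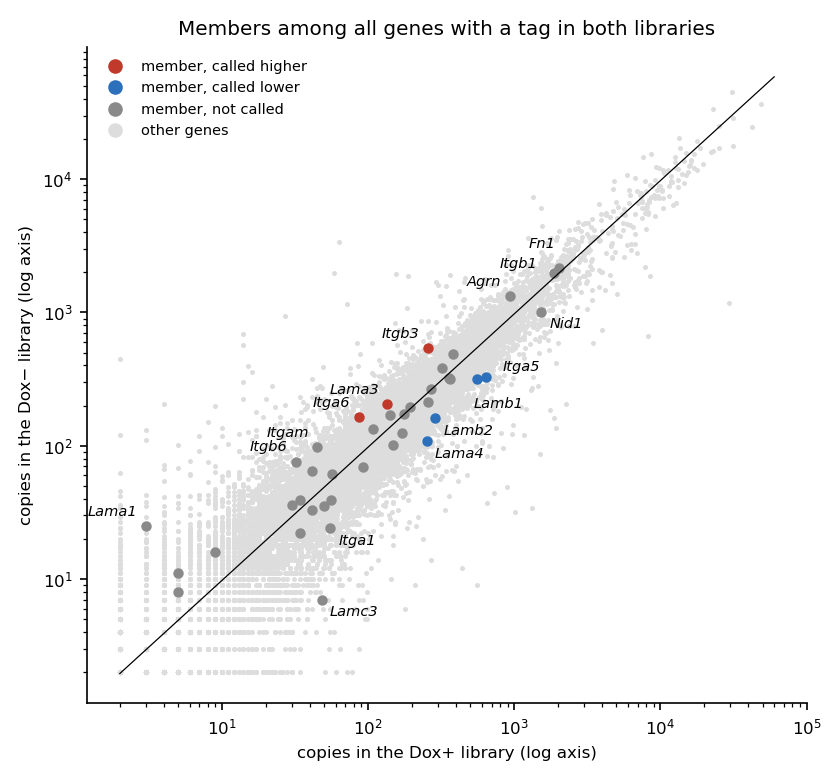
Copies in the Dox+ library (x axis, log scale) against copies in the Dox− library (y axis, log scale) for all genes with a tag in both, with the line of equal shares of clean tags. The 3 members called higher in red lie above the line and the 4 called lower in blue below it. Members in grey, including those under 200 combined copies, were not called. By the same rule, 15.2% of all genes with enough copies were called higher and 14.7% lower.

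Among the laminin-binding alpha chains, Itga6 was called higher. Itga6 pairs with Itgb4 in the hemidesmosomes that anchor epithelium and with Itgb1 elsewhere (chromosome 2, 71583673 to 71696473). It had 86 copies in Dox+ and 163 in Dox−, 1.94-fold higher (1.49 to 2.55). Itgb4, its hemidesmosome partner, had 322 and 382 copies, a ratio of 1.22 (1.04 to 1.41), and lay entirely below the interval of Itga6. Itga3, the other epithelial laminin receptor chain, had 108 and 134 copies, and its interval of 0.979 to 1.65 held 1. Itga7, the laminin receptor chain of muscle, had 50 and 35 copies, with an interval of 0.452 to 1.13 that also held 1. The intervals of Itga6 and Itga7 did not overlap.

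The collagen-binding alpha chains came from few tags. Itga1, found on stromal and smooth muscle cells, had 55 copies in Dox+ and 24 in Dox−, 2.24-fold lower (1.36 to 3.78). Itga2, an epithelial and platelet chain, had no tag in Dox+ and 6 in Dox−. Its ratio was 2.05 with 3 copies set for Dox+, its lower 95% limit was 1.21, and at an FDR of 0.0654 in the Audic-Claverie test it did not pass. Itga10 with 9 and 16 copies and Itga11 with 5 and 8 had intervals that held 1. Itga4, a receptor chain for fibronectin and Vcam1, had 92 and 69 copies, and its interval of 0.554 to 1.06 held 1. Itga9, a tenascin receptor chain, had 194 copies in each library.

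The leukocyte integrins came from few tags. Itgam, the alpha chain of the complement receptor of myeloid cells, had 45 copies in Dox+ and 97 in Dox−, 2.21-fold higher (1.54 to 3.22). Its beta chain Itgb2 had 34 and 39 copies, a ratio of 1.17 (0.723 to 1.92), and the intervals of the pair overlapped. Itgal with 5 and 11 copies, Itgax with 30 and 36, Itgae with 34 and 22, and Itgb7 with 57 and 61 all had intervals that held 1. Of 10 leukocyte markers, all in the table with none at 0, 5 had enough copies, of which 1 was called higher and none lower. By the same rule, 15.2% of all genes with enough copies were called higher and 14.7% lower. The levels of the 10 markers summed to 180 TPM in Dox+ against 242 TPM in Dox−. Laptm5, the called marker, had 224 and 446 copies, and so gave most of the difference in the summed copies of the list, 1078 and 1416. The myeloid markers differed among themselves, as Csf1r had 186 and 181 copies and Tyrobp 211 and 158, a ratio of 0.767 (0.620 to 0.947). Lyz2 went the other way with 127 and 169 copies, a ratio of 1.36 (1.08 to 1.73). Ptprc, at too few copies to be called, had 49 and 130, 2.72-fold higher in Dox− (1.94 to 3.86). The part of these markers in the count of Itgam was not tested.

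The laminin alpha chains, which hold the sites that cells bind, went in both directions. Lama4, the alpha chain of vessel and smooth muscle basement membranes (chromosome 10, 38685321 to 38829994), had 251 copies in Dox+ and 108 in Dox−. It was 2.27-fold lower in Dox− (1.80 to 2.87). Lama3, the alpha chain of epithelial anchoring laminin, had 135 and 205 copies, 1.56-fold higher (1.25 to 1.95). This call was the weakest of the 7 and was the one lost in edgeR with an assumed variation between pools of 0.1, where its adjusted p-value was 0.0660. Lama5, found in epithelial and vessel basement membranes, had 268 and 267 copies, and Lama2, the muscle laminin chain, had 176 and 173. Both intervals held 1, at 0.858 to 1.21 for Lama5 and 0.811 to 1.25 for Lama2. Lama1, a chain best known from the embryo, had 3 copies in Dox+ and 25 in Dox−, a ratio of 8.54 with a wide interval of 2.60 to 44.2.

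As shares of the laminin alpha copies, Lama4 and Lama3 shifted in opposite directions. Lama4 held 30.1% (27.0 to 33.4) of 833 copies in Dox+ and 13.9% (11.5 to 16.5) of 778 in Dox−. Lama3 held 16.2% (13.8 to 18.9) in Dox+ and 26.3% (23.3 to 29.6) in Dox−. The intervals of the libraries did not overlap for either chain. The summed copies of all alpha chains differed little, with a log2 ratio of -0.06.

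**Figure D3:**
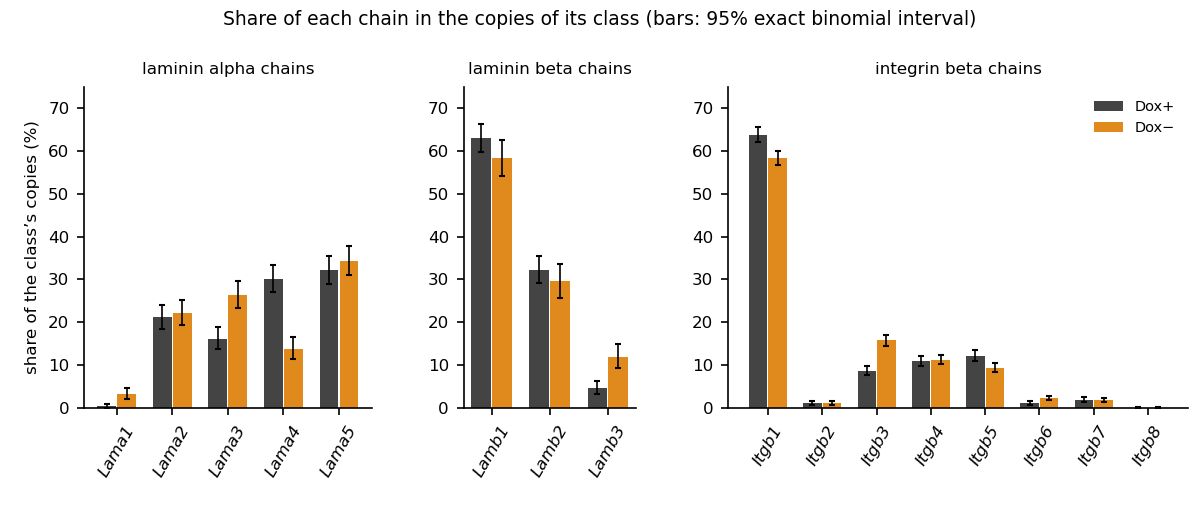
Share of each chain in the copies of its class in percent (y axis, from 0) for laminin alpha, laminin beta and integrin beta chains, with dark bars for Dox+, orange bars for Dox− and error bars for 95% exact binomial intervals. Lama4 fell from 30.1% to 13.9% of the alpha copies while Lama3 went from 16.2% to 26.3%, and Itgb3 went from 8.73% to 15.8% of the integrin beta copies.

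Both widely expressed laminin beta chains were called lower. Lamb1 (chromosome 12, 31950099 to 32014509) had 560 copies in Dox+ and 318 in Dox−, 1.72-fold lower (1.496 to 1.98). Lamb2, typical of vessel walls and muscle (chromosome 9, 108382193 to 108392861), had 287 and 161 copies, 1.74-fold lower (1.43 to 2.12). Their intervals overlap almost wholly. Lamb3, which joins Lama3 in epithelial anchoring laminin, went the other way with 41 and 65 copies, a ratio of 1.62 (1.08 to 2.46). Its share of the laminin beta copies was 4.62% (3.33 to 6.21) in Dox+ and 11.9% (9.34 to 14.97) in Dox−. The 3 beta chains together had a log2 ratio of -0.67.

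Of the gamma chains, Lamc1 and Lamc3 were not alike. Lamc1, the gamma chain of most laminins, had 365 and 315 copies, with a ratio of 0.884 (0.758 to 1.03). Lamc3 had 48 copies in Dox+ and 7 in Dox−, 6.69-fold lower with an interval of 3.01 to 17.5, which did not overlap that of Lamc1. Over all 25 integrin chains, 4857 copies in Dox+ and 5180 in Dox− gave a log2 ratio of 0.13.

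The linkers divided by gene. Nid1, the main nidogen, had 1529 copies in Dox+ and 1012 in Dox−, 1.48-fold lower (1.36 to 1.599) and just short of the fold threshold. Nid2 had 171 and 124 copies, 1.35-fold lower (1.06 to 1.71). Agrn, a heparan sulfate proteoglycan that binds both laminin and dystroglycan, had 930 and 1319 copies, 1.45-fold higher (1.33 to 1.58) and also just short of the threshold. Dag1, which encodes dystroglycan, had 142 and 171 copies, and its interval of 0.982 to 1.55 held 1. The intervals of Nid1 and Agrn were narrow and lay on opposite sides of 1. Both genes passed the absolute log2 ratio above 0.5 that the paper's methods name.

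Among the 19 genes under 200 combined copies, 4 passed the fold and FDR thresholds as higher, Lama1, Itgb6, Itgam and Lamb3, and 2 as lower, Lamc3 and Itga1. These shares were 21.1% and 10.5%, where 12.9% and 13.7% of all genes under 200 copies passed as higher and lower. The other 13 did not pass. Itga4, Itga7, Itgae, Lamb1, Lama3, Fn1 and Nid2 overlap a gene on the opposite strand and Itga1 and Itga10 a gene on the same strand. Only unambiguous tags, which match 1 gene, were counted, and whether the overlap affects these counts was not tested. Of the 16 genes with enough copies that were not called, 8 had intervals that left out 1 at fold changes under 1.5, and 8 had intervals that held 1.

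Cell type markers were read beside these chains. Of all genes with enough copies, 15.2% were called higher and 14.7% lower. Of 10 endothelial markers, 4 had enough copies, and 3 of these, Cdh5, Tie1 and Egfl7, were called lower. Summed over the 10 markers, the level went from 261 to 173 TPM, and no marker was at 0 in either library. Pecam1, the other marker with enough copies, had 243 and 253 copies. Of the 6 markers with fewer copies, 3 passed the fold and FDR thresholds as lower. Eng with 92 and 104 copies and Kdr with 10 and 17 went the other way, with intervals that held 1. All 9 smooth muscle markers had log2 ratios below 0, between -0.92 and -0.33, and 4 were called lower, with summed levels of 8129 and 5776 TPM. The summed levels of both lists moved in the direction of Lama4, Lamb1, Lamb2, Itga5 and Nid1, which were picked by their direction. Lama2, the muscle laminin chain, with 176 and 173 copies, and Lama5 with 268 and 267 had intervals that held 1. Of 10 epithelial markers, 4 were called higher, Elf3, Krt7, Cldn7 and Epcam, and 2 lower, Cldn3 and Cldn4. The summed level of all 10, which went from 1270 to 1817 TPM, moved in the direction of Itga6, Lama3, Lamb3 and Itgb6, also picked by direction. Itgb4 had a ratio of 1.22 (1.04 to 1.41), and the interval of Itga3 held 1. Of 9 stromal markers, 2 were called higher and 3 lower at summed levels of 9642 and 11707 TPM, and of 6 platelet markers, the 3 in the table summed to 3.68 and 3.08 TPM with Ppbp at 0 in Dox+. The part of these markers in the members' counts was not tested, and in whole uterus, fewer cells of a type and less RNA per cell cannot be told apart.

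Other genes of the same structures were read from hand-written lists. Beside them, 15.2% of all genes with enough copies were called higher and 14.7% lower, at a median log2 ratio of 0.03. Of 15 other basement membrane genes with enough copies, 6 were called lower and 1 higher, with a median log2 ratio of -0.31. Col4a5, a type IV collagen chain, had 615 copies in Dox+ and 222 in Dox−. Col18a1, the source of endostatin, had 1635 and 821, and Col4a2, of the widespread type IV collagen, had 3148 and 1995. Egfl6, which holds an integrin-binding RGD motif, was the gene called higher, with 101 and 277 copies. Sparc and Smoc2, the other genes of this list with the most copies, had log2 ratios of 0.02 and 0.18.

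Of 12 other integrin ligands with enough copies, 5 were called lower and 2 higher, with a median log2 ratio of -0.34. Postn, a ligand of Itgav with Itgb3 or Itgb5, had 1334 copies in Dox+ and 325 in Dox−, 4.01-fold lower. Tnc with 272 and 99 copies, Thbs1 with 608 and 241 and Emilin1 with 2162 and 1031 were called lower as well. Spp1, the gene of osteopontin, which binds the same receptors, had a log2 ratio of 0.82 and was called higher, as was Fbn1 with 0.72. The ligands of the vitronectin receptor were therefore found on both sides. Cdh1, the ligand of Itgae, had 703 and 909 copies.

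Inside the cell, 24 genes of integrin adaptors and focal adhesions had enough copies, of which 7 were called lower and 1 higher, with a median log2 ratio of -0.27. Tln1, the talin that binds beta chain tails, had 3093 copies in Dox+ and 1675 in Dox−, 1.80-fold lower. Lims2 with 208 and 65 copies and Parvb with 181 and 67 belong to the complex around integrin-linked kinase. Both were called lower, as was Lims1 with 426 and 258 copies. Parva, with 1413 and 1543 copies, went the other way at a ratio of 1.12 (1.04 to 1.20) and was not called. Ilk itself had a log2 ratio of -0.17 and was not called. Ptk2b, a focal adhesion kinase relative, had 557 and 200 copies. Fermt1, the kindlin of epithelial cells, was the gene called higher, with 138 and 269 copies. Flna and Actn4, the other genes of this list with the most copies, had log2 ratios of -0.12 and 0.23.

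Of 7 genes of the dystroglycan complex and its glycosylation with enough copies, 1 was called higher and none lower, with a median log2 ratio of 0.07. Utrn, which joins dystroglycan to actin, had 136 copies in Dox+ and 296 in Dox−, 2.23-fold higher. Pomgnt1 with 306 and 295 copies, Sgce with 296 and 303 and Large with 280 and 213 were not called. Another 12 genes of this list had fewer copies, and 2 of them passed the fold and FDR thresholds as higher and 2 as lower. The shares of all genes under 200 copies that passed were 12.9% and 13.7%. Dmd, 1 of those that passed as lower, had 83 and 49 copies, 1.65-fold lower (1.15 to 2.40). Of 11 tetraspanins and other integrin partners, Cd82 was called higher with 214 and 314 copies and Cd44 lower with 1078 and 633. The median of this list was a log2 ratio of 0.01. Cd63, Cd81 and Sdc1, with the most copies, had log2 ratios of 0.13, -0.34 and 0.51.

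**Figure D4:**
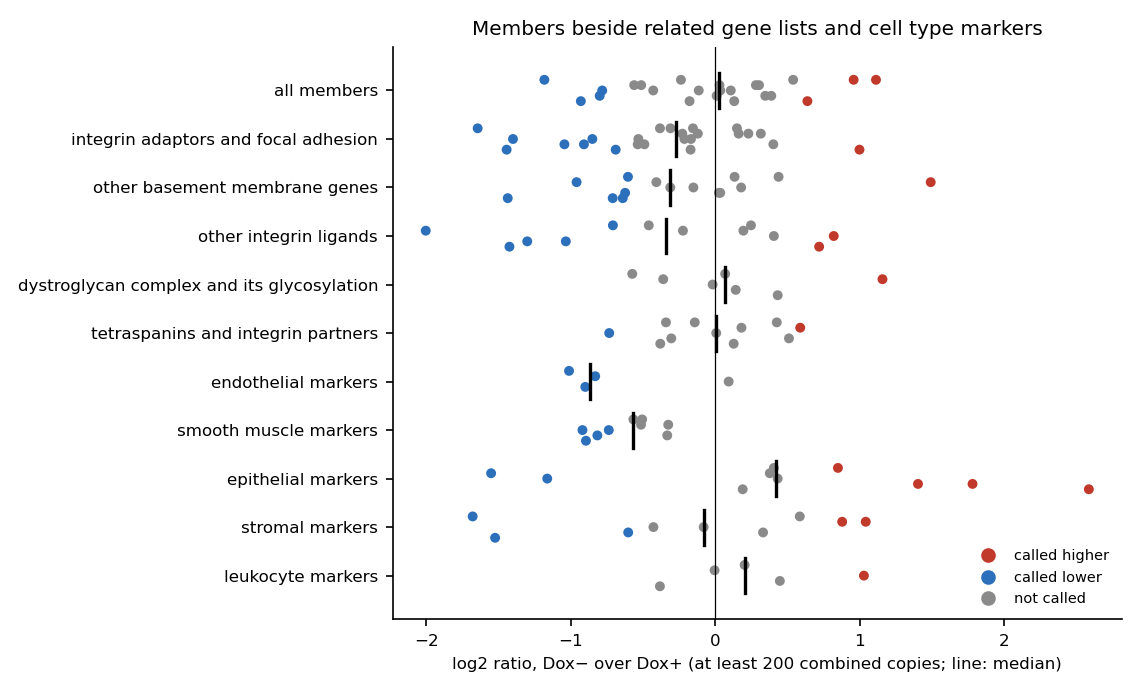
Log2 ratio of Dox− over Dox+ (x axis) of each gene with at least 200 combined copies in the members, 5 related gene lists and 5 lists of cell type markers (rows), with called genes in red and blue and a black line at each median. The members' median lies at 0.03, those of focal adhesion, basement membrane and ligand genes between -0.34 and -0.27, and that of the smooth muscle markers at -0.57.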

How the data were processed

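Total RNA of 3 pooled uteri per group was profiled at gestation day 2.5 in a single library each for Dox+ and Dox−. Before counting, the authors discarded tags that were adaptor only, of low quality or seen once, and matched the rest, sense and antisense, to mouse mRNA of build mm9. They deposited the counts of unambiguous tags per gene, called copy numbers, without normalization. The deposited TPM values are copies scaled to the clean tags of each library, computed by the authors without a length correction and with 0.01 at a copy number of 0. The table also holds the authors' ratios, log2 ratios, P-values and FDR, which were not used. The submitters' processing notes name CASAVA, and the aligner is not given in the sources used here. The labels mention fragmented mRNA and the paper tag profiling, a difference not resolved here, so no gene was called higher or lower than another gene. Class shares and summed TPM weight each gene by its copies, without length, and were read only between the libraries.

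Clean tags per library were taken from copies over TPM and gave all 14050 and 13948 TPM values above 0. Gene copies were 74.1% and 72.2% of the clean tags, less than the shares of unambiguous tags that the paper gives. The copies thus do not hold every unambiguous tag, and whether they hold antisense tags was not tested. The Audic-Claverie test was used two-sided, with Benjamini-Hochberg FDR over all 14678 genes. Ratios and shares carry exact Clopper-Pearson intervals, which cover counting error only. A copy number of 0 was set to 3 for a fold change, and none was taken with 3 or fewer in both libraries. 1 member is not reported here, and every other member is named. Of each related list, the genes with the most copies and the called genes with the largest changes are named. Spp1, Fbn1, Ilk, Lims1, Parva, Fermt1, Dmd and the genes named from marker lists outside that rule were chosen after their values were seen. Members and lists were chosen with earlier results of these data known. The methods were tested on simulated data that held counting error only, so that test does not cover variation between pools. Positions are from GENCODE on NCBIM37. Alternatives were other library sizes (copy totals, TMM, median ratio), filters, fold thresholds, Fisher's exact test, the exact test of edgeR with assumed variation between pools, and a pseudocount of 1. Python 3.11.15, numpy 2.4.6, scipy 1.17.1, pandas 2.3.3, matplotlib 3.10.9, R 4.3.3 and edgeR 4.0.16 were used.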

Additional observations from a re-analysis of the deposited data

How the results depend on the processing

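No paired analysis was possible because each group had 1 library, and for the same reason no replicate could be left out. Under the other library sizes, a pseudocount of 1 and Fisher's exact test, the 7 called genes were called in the same direction, and Nid1 became the fifth gene called lower under TMM, at a log2 ratio of -0.59, and under median ratios, at -0.60. From a combined copy number of 100, 6 genes were called higher, and from 20 or without a filter 7 were called higher and 6 lower, since Itgam, Itgb6, Lamb3, Lama1, Itga1 and Lamc3 then entered. With an absolute log2 ratio above 0.5, Agrn, Nid1 and Itga8 were added. At a fold change of at least 2, 1 gene was called higher, Itgb3, and 1 lower, Lama4. With an assumed coefficient of variation between pools of 0.1, edgeR kept 2 genes called higher and 4 lower. With 0.2 it called 0 higher and 0 lower, with 2 and 2 at an unadjusted p under 0.05 (Itgb3, Itga6, Lama4 and Itga5), while the Audic-Claverie and Fisher tests called 3 and 4. With 0.4 it called 0 and 0, and 0 and 0 at an unadjusted p under 0.05. How much pools differ cannot be measured here. The median log2 ratio of the members lay between -0.01 and 0.11 over these settings, and that of all genes between 0.00 and 0.07. Over all 6547 genes with enough copies, 994 were called higher and 961 lower. The counts were 1444 and 1366 of 8856 genes from 100 copies, 1925 and 1887 of 12079 from 20, and 2044 and 2077 of 13727 without a filter. Of the 6547 genes, they were 1231 and 1168 at an absolute log2 ratio above 0.5, and 302 and 368 at a fold change of at least 2. At an assumed variation of 0.1 they were 864 and 851, at 0.2 147 and 174, and at 0.4 16 and 17. Depth limited the genes under 200 combined copies most, as for Lama1.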

Other observations

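Several members lie close together on the chromosomes of NCBIM37. Itga1 and Itga2, collagen-binding chains with 26.0 kb between them on chromosome 13, had 55 and 24 copies and 0 and 6 copies in Dox+ and Dox−. Itgam and Itgax, leukocyte chains 1.4 kb apart on chromosome 7, had ratios of Dox− over Dox+ of 2.21 (1.54 to 3.22) and 1.23 (0.736 to 2.07), with overlapping intervals. Lamb2 and Dag1, 215.9 kb apart on chromosome 9, had ratios of 0.575 (0.471 to 0.699) and 1.23 (0.982 to 1.55), which did not overlap.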
